A study of Mus musculus with 12 samples.

Results

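The difference between the change that loss of *Ncam-1* made in Purkinje cells (PCs) and the change it made in ventricular myocytes (VMs) was measured gene by gene, as the interaction (KO PC − WT PC) − (KO VM − WT VM) on the log2 scale. All 12 RNA-seq libraries of the series entered it, with 3 for each combination of WT or KO and PC or VM, grouped by the genotype and cell type in their titles. Of 11533 genes with enough counts to test, 340 (2.95%) had an interaction whose p-value, before adjustment for multiple testing, was under 0.05 by the quasi-likelihood test of edgeR, and 0 passed after Benjamini-Hochberg adjustment. Within the 340, 205 genes had a knockout change in PCs alone and 38 in VMs alone by the same threshold, and 4 changed in opposite directions.

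The mice were adult males, either WT or homozygous null for *Ncam-1* in every cell of the body, and both genotypes carried the *Cntn2-*EGFP transgene, which labels the ventricular conduction system. The transgene was kept on a CD1 background and the null allele on C57BL/6, so the crossed animals were of mixed strain. Dissociated ventricular cells were stained with 50 nM TMRM, a mitochondrial dye that marks cardiomyocytes, and sorted into stained cells with GFP (PCs) and without it (VMs). The sources used here do not say whether a PC and a VM library with the same number came from 1 heart or how many hearts each library holds.

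NCAM-1 is a cell adhesion molecule of the immunoglobulin superfamily that binds to itself on neighbouring cells and signals through FGF receptors and the Ras-MAPK pathway. By staining, the study found it in the conduction system and not in VMs of the adult heart, but in the embryo also in the compact myocardium. It raised lasting effects of the developmental loss in adult VMs as an open question. PCs carry the impulse quickly from the bundle branches to the working myocardium, while VMs produce the contraction. A gene that depends on NCAM-1 in PCs alone would differ between genotypes there and not in VMs. An interaction tests such a difference directly, and a pair of separate comparisons does not.

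The libraries held between 13883427 and 42505705 counts on genes, of which 79.0% to 91.3% lay on the mitochondrial genome, leaving 1532393 to 6761356 for all other genes. Replicate 2 of WT PCs (WT PC 2 below) stood apart. It had the largest share of unaligned read pairs, 63.9%, where the other 11 libraries had 18.8% to 24.7%, and the fewest genes with a count, 11847, where the others had 13571 to 18129. For the genes and lists whose call or value turned on it, the value without it is given where they are described. A normalized count is a count divided by its library's TMM-scaled total and returned to the scale of the mean library, and 1 count was worth 0.480 normalized counts in the deepest PC library and 2.15 in WT PC 2. A library with 3 or fewer counts of a gene was taken as being at the floor of detection, which covers counting error only.

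The labels were checked on 2 genes. *Ncam1* had 39.9, 73.1 and 73.9 normalized counts in WT PCs, at least 15.3-fold above the floor at which all KO PC libraries lay. The VM libraries held 6, 0 and 9 counts of *Ncam1* when WT and 0 when KO, too few to say whether the loss differed between cell types. *Cntn2*, the gene whose promoter drives the reporter, had 261, 497 and 587 normalized counts in WT PCs and 3.10, 4.15 and 2.45 in WT VMs. In KO PCs it stood at 42.6 and 54.3 in replicates 1 and 2 and at 499 in replicate 3, so that 1 KO PC library lay among the WT PCs.

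Changes in PCs and VMs were fitted together, so that each interaction equals the change in PCs minus the change in VMs. In PCs 697 genes were lower (6.04% of those tested) and 281 higher (2.44%) in KO at an unadjusted p-value under 0.05. In VMs 103 were lower (0.893%) and 54 higher (0.468%). Over all genes the median log2 fold change was -0.00 in PCs and -0.02 in VMs. The larger number in PCs held in this joint fit, in which both cell types share 1 estimate of the spread per gene. With the 6 libraries of each cell type fitted alone, 394 genes were called in PCs and 554 in VMs, and with limma voom and quality weights 522 and 651, so which cell type had more calls depended on the fit. By chi-square per degree of freedom on raw counts, pairs of WT PC libraries had 22.7 to 77.0. Pairs of KO PC libraries had 7.01 to 20.6, and pairs of VM libraries of 1 genotype 4.20 to 11.5. This measure grows with depth, and the 22.7 belongs to WT PC 1 and 3, the deepest libraries outside the mitochondrial genome. The median standard error of the interaction was 0.622.

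Few genes crossed the threshold in both cell types. Of the genes called, 18 were lower in both, 9 were higher in both, and 4 went in opposite directions. The other 947 genes called in PCs were not called in VMs, yet for 205 of these, or 21.6%, the difference between the cell types itself had a p-value under 0.05. The reverse held for 38 of 126 genes called in VMs alone, or 30.2%. For the remainder the difference between the cell types was not detectable at this depth and replication. The 340 genes of the interaction were 216 with a negative value (1.87%), meaning lower in KO PCs relative to KO VMs, and 124 with a positive value (1.08%), where 576.65 in all would be expected by chance. The gene with the smallest p-value was *Enpep*, and no adjusted p-value in this edgeR fit (Benjamini-Hochberg) was below 0.999. DESeq2 and limma voom also gave 0 genes after adjustment, with 450 and 424 before it, while edgeR without the filter on low counts gave 19 after adjustment. The names below are therefore a ranking and not a list of established interactions, and higher and lower refer to the unadjusted threshold.

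**Figure D1:**
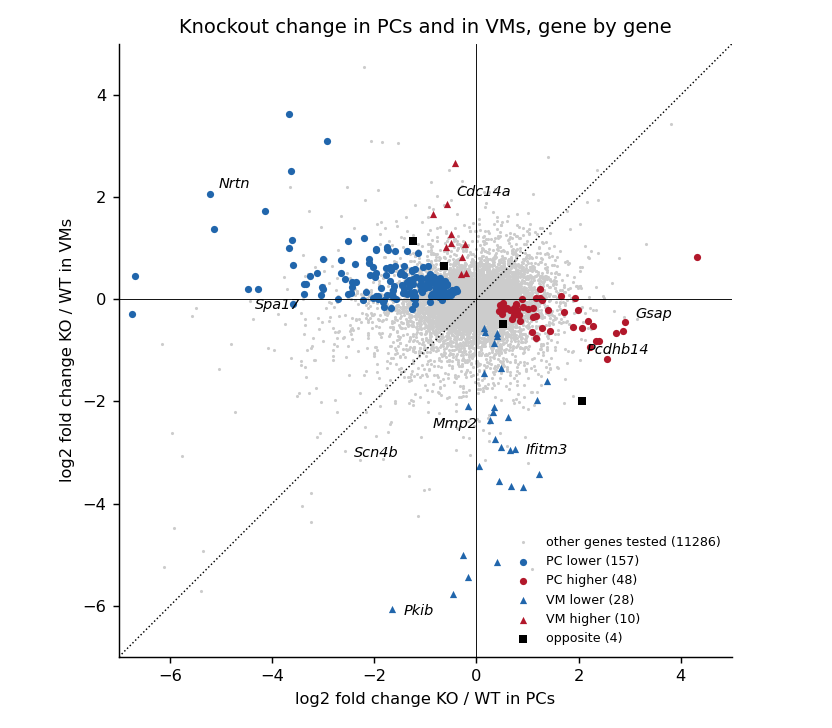
Each point is 1 of the genes tested, placed by its log2 fold change of KO over WT in PCs (horizontal) and in VMs (vertical), and the dotted line marks equal change in both. Blue and red circles are the 157 genes lower and the 48 higher in KO PCs alone, triangles the 28 lower and 10 higher in KO VMs alone, and squares the 4 with opposite changes. *Scn4b* lies near the line, and 16 genes outside the axes, none of them in a coloured class, are not drawn.

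The PC class with lower expression held 157 genes (1.36% of those tested). It includes *Fmr1*, *Gsg1l*, *Hopx*, *Sema3a*, *Slit2* and *Myh10*, for which the mean of WT PCs stood above those of the other 3 groups. Nearly all genes of the class had a higher mean in WT PCs than in WT VMs (156 of 157, against 49.9% of all genes tested), and 26 of 157 had a higher mean in KO PCs than in KO VMs. The class was chosen on these values, which are therefore a description. The median mean level was 119 normalized counts in WT PCs, 46.7 in KO PCs, 44.2 in WT VMs and 60.1 in KO VMs.

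*Fmr1* (ENSMUSG00000000838, chromosome X, 68678541 to 68717963 of GRCm38) encodes FMRP, an RNA-binding protein that represses translation. It had 68.2, 66.6 and 80.2 normalized counts in WT PCs against 25.2, 22.3 and 25 in KO PCs. The VM libraries held 37.2, 41.5 and 45.6 when WT, and 28.1, 45.3 and 51.0 when KO. The PC groups did not overlap, while the VM groups covered the same range. The log2 fold change was -1.57 in PCs (standard error 0.35) and 0.00 in VMs (standard error 0.34), a 2.96-fold lower level in KO PCs. Its interaction of -1.57 had a 95% interval from -2.61 to -0.53, and was -1.62 without WT PC 2.

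*Gsg1l* (ENSMUSG00000046182, chromosome 7, 125878420 to 126082411) encodes an auxiliary subunit of AMPA-type glutamate receptors. Its normalized counts were 91.8, 88.1 and 122 in WT PCs and 44.6, 36.2 and 51.6 in KO PCs. WT VMs had 38.2, 25.9 and 33.4 and KO VMs 56.1, 45.3 and 30.6, with overlap. The change was 2.28-fold down in PCs, and the interaction was -1.62 (standard error 0.49) and -1.69 without WT PC 2.

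*Hopx* (ENSMUSG00000059325, chromosome 5, 77086988 to 77115121) encodes a homeodomain protein without DNA binding of its own that is expressed in the conduction system. WT PCs had 2005, 3306 and 1825 normalized counts and KO PCs 1126, 1554 and 1435. WT VMs had 995, 1018 and 1022, and all 3 KO VM libraries were above these, at 1252, 1179 and 1328. So *Hopx* was 1.73-fold lower in KO PCs, and the VM change of 0.31 had the other sign without passing the threshold. The interaction was -1.10 (standard error 0.30), and -0.79 without WT PC 2, the highest of the WT PCs.

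*Sema3a* and *Slit2* encode secreted guidance cues, the first a repellent of growing axons that patterns the sympathetic nerves of the heart, the second a ligand of ROBO receptors. *Sema3a* (chromosome 5, 13125414 to 13602565) had 192, 499 and 640 normalized counts in WT PCs against 75.6, 59.8 and 251 in KO PCs. In VMs it was scarce, with 11.4, 11.4 and 10.6 when WT and 24.9, 24.1 and 19.1 when KO. The highest KO PC library, replicate 3, lay above the lowest WT PC library, so the PC groups overlapped. The interaction was -2.76 (standard error 0.78). It is the change of -1.74 in PCs minus a VM change of 1.02, in the other direction, that did not pass. The normalized counts of *Slit2* were 313, 813 and 1585 in WT PCs, 85.2, 115 and 477 in KO PCs and 14.2 to 40.5 in the 6 VM libraries. Its groups overlapped in PCs for the same reason, and the interaction was -2.02 (standard error 0.92).

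Genes of the contractile and cytoskeletal apparatus were among those lower in PCs alone. Of 36 tested sarcomere and Z-disc genes 3 had a negative and 0 a positive interaction, where 1.87% and 1.08% of all genes did. That list did not hold *Myh10*, *Neb* or *Tmod4*. *Tmod4*, a tropomodulin of skeletal muscle, went the other way, higher in KO PCs alone with an interaction of 1.60. *Myh10*, a non-muscle myosin heavy chain, had 157, 168 and 138 normalized counts in WT PCs against 105, 86.3 and 83.2 in KO PCs, with 78.2 to 108 in all VM libraries. *Neb* (nebulin) had 352, 948 and 778 in WT PCs against 192, 320 and 544 in KO PCs, an interaction of -1.60 (standard error 0.50). *Tmod1*, which caps the slow end of thin filaments, had an interaction of -0.60 (standard error 0.23), and *Ankrd1*, a stretch-responsive protein of the titin spring, of -0.66 (standard error 0.26). For *Myh10*, *Tmod1* and *Ankrd1* the PC libraries of the genotypes lay apart, and for *Myh10* and *Tmod1* the VM libraries lay apart too, in the other direction and without passing the test. The interaction of *Myl1*, a myosin light chain of fast muscle and atria, was -1.85 and went to -0.80 without WT PC 2, where it no longer passed. The interactions of *Neb* and *Tmod1* were -1.30 and -0.48 without that library and still passed, but their PC changes, at -0.65 and -0.28, did not.

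Further genes were ranked among the 15 smallest p-values on the negative side. *Rnf145* and *Rnf25*, both RING-type ubiquitin ligases, had interactions of -2.72 and -3.39. *Otub2*, a deubiquitinating enzyme, had 31.7, 60.2 and 19.7 normalized counts in WT PCs against 5.81, 13.9 and 7.36 in KO PCs. *Aldh2*, the mitochondrial aldehyde dehydrogenase, had an interaction of -1.04. Of these, *Rnf145* alone moved by under 0.1 when WT PC 2 was left out, to -2.76, against -2.51 for *Rnf25*, -1.94 for *Otub2* and -0.68 for *Aldh2*. The PC changes of *Rnf25* and *Aldh2* no longer passed without it.

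**Figure D2:**
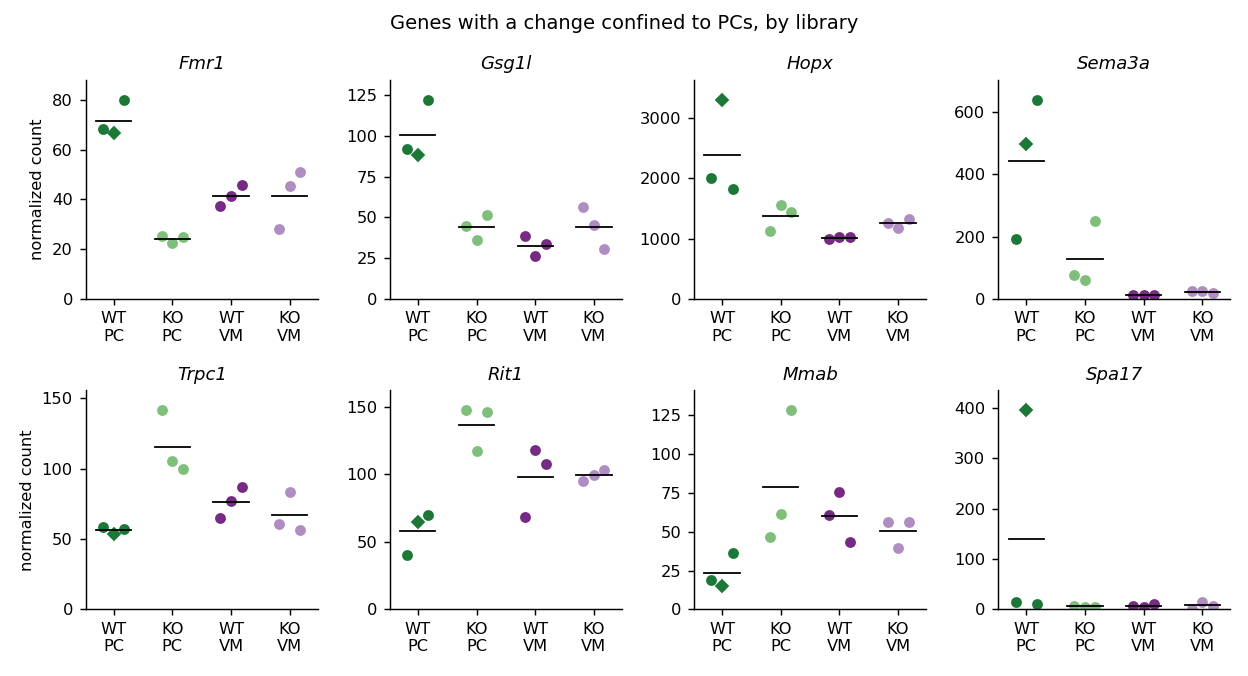
Normalized counts (vertical, linear from 0) of 8 genes of the PC classes in each library, by group, with a line at each group's mean and a diamond for WT PC 2. *Fmr1*, *Gsg1l*, *Hopx* and *Sema3a* are higher in WT PCs than in KO PCs, *Trpc1*, *Rit1* and *Mmab* lower, and *Spa17* is high in WT PC 2 alone. The panels were chosen after the values were seen.

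Much of the PC-lower class rested on WT PC 2. That library was the highest of the 3 WT PCs for 135 of the 157 genes, 86.0%, against 36.1% of all genes tested. Without it the class held 90 genes, of which 42 were among the 157, and 65 of the 147 that could be refitted kept an interaction at p under 0.05. The sign of the interaction was kept in 146 of 147, but these genes were chosen on libraries that the refit shares. *Spa17*, which encodes a sperm protein and overlaps *Siae* on the opposite strand, had 15.4, 396 and 10.2 normalized counts in WT PCs against 5.16 to 7.75 in KO PCs. Its interaction of -4.68 became -1.29 without WT PC 2 and no longer passed. *Tyw5*, *Upp2*, *Nrtn* and *Col13a1* had the same shape, with 254, 55.9, 81.7 and 60.2 normalized counts in WT PC 2 and at most 29.8 in any other PC library. *Tyw5* overlaps *Maip1* on the opposite strand. Without WT PC 2, *Nrtn*, the GDNF-family ligand neurturin, and *Col13a1*, a transmembrane collagen, had too few counts to be fitted.

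**Figure D3:**
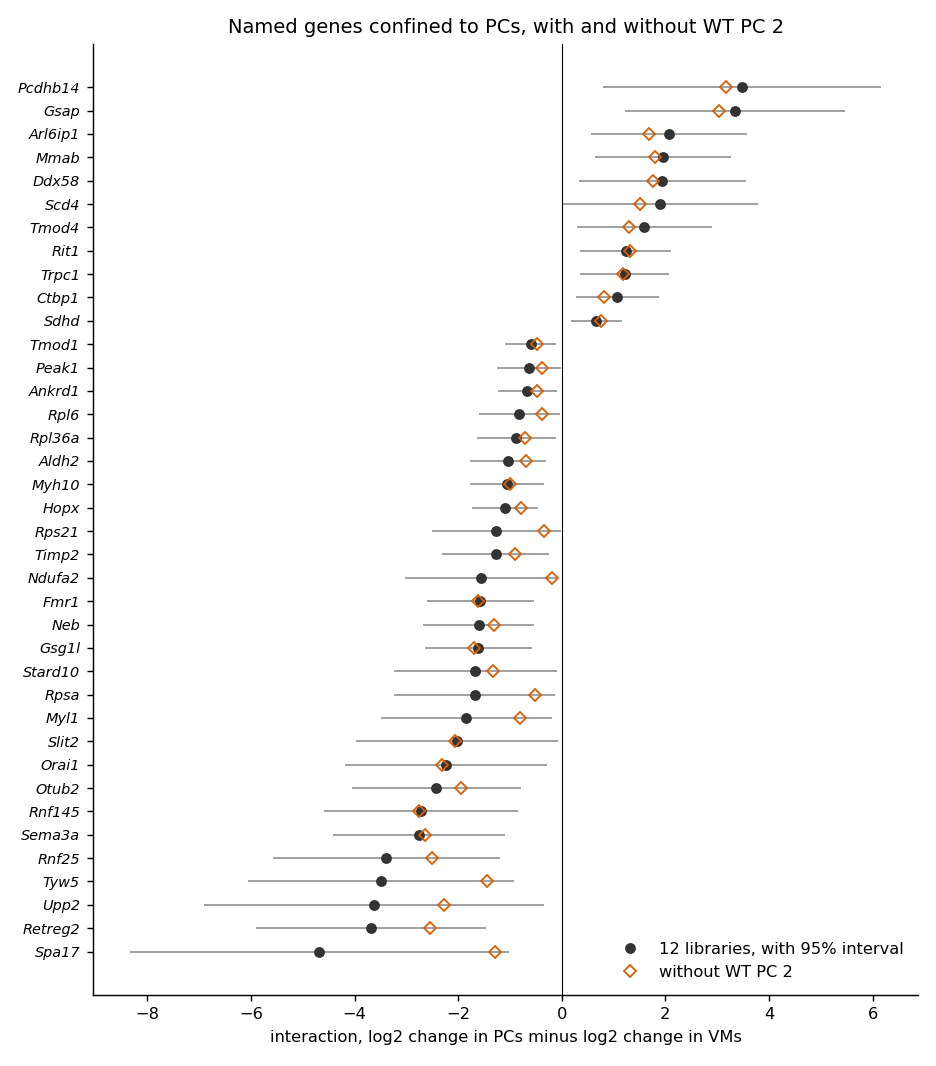
Interaction (horizontal, log2 change in PCs minus log2 change in VMs) of the named genes of the PC classes, with filled circles and 95% intervals for all 12 libraries and open diamonds without WT PC 2. *Fmr1*, *Gsg1l*, *Sema3a*, *Slit2*, *Rit1* and *Trpc1* stay near their value, while *Spa17*, *Tyw5*, *Ndufa2*, *Rpsa* and *Rps21* move towards 0. *Nrtn* and *Col13a1* could not be refitted and are not drawn.

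The PC class with higher expression held 48 genes (0.416%), with WT PCs below the other 3 groups. All but 1 of the 48 had a lower mean in WT PCs than in WT VMs. WT PC 2 was the lowest WT PC for 37 of the 48, 77.1%, where it was so for 51.8% of all genes. Without that library 37 of the 48 had an interaction at p under 0.05, and the class held 82 genes, 34 of them among the 48.

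*Trpc1* (ENSMUSG00000032839, chromosome 9, 95705082 to 95750375), a subunit of non-selective cation channels, had 58.6, 53.7 and 57.3 normalized counts in WT PCs against 141, 106 and 99.4 in KO PCs. WT VMs had 65.1, 76.8 and 87.2 and KO VMs 60.8, 83.5 and 56.1. The PC groups lay apart and the VM groups overlapped. It was 2.02-fold higher in KO PCs, with an interaction of 1.21 (standard error 0.40), and 1.18 without WT PC 2. *Rit1* (chromosome 3, 88716838 to 88731049) encodes a small GTPase of the Ras family that acts on MAPK signalling. It had 39.9, 64.5 and 70.1 normalized counts in WT PCs against 147, 117 and 146 in KO PCs, 2.37-fold more. WT VMs had 68.2, 118 and 108 and KO VMs 95.1, 99.1 and 103, so the *Rit1* change was 0.02 in VMs (standard error 0.29). The interaction of *Rit1* was 1.23 (standard error 0.42).

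*Mmab*, which attaches the adenosyl group to cobalamin, had 19.2, 15.0 and 36.3 normalized counts in WT PCs against 46.5, 61.2 and 128 in KO PCs (interaction 1.95, standard error 0.62). *Sdhd*, a membrane anchor of succinate dehydrogenase, had 1918, 2234 and 1897 in WT PCs and 2660, 3014 and 2545 in KO PCs, with VM libraries between 2022 and 3004. Its interaction of 0.67 (standard error 0.23) was one of the smallest among the named genes and came from one of the most abundant transcripts. *Sdhd* lies within 10 Mb of *Ncam1*. *Ctbp1*, a transcriptional corepressor, had 172, 77.4 and 180 normalized counts in WT PCs against 271, 289 and 268 in KO PCs, with 188 to 255 in VMs. *Arl6ip1*, which shapes the endoplasmic reticulum, had an interaction of 2.07 and *Tmod4*, a tropomodulin of skeletal muscle, of 1.60. *Gsap* had 3.84, 0 and 3.18 normalized counts in WT PCs against 23.2, 13.9 and 28 in KO PCs, but it overlaps *Ccdc146* on the opposite strand, and whether the counting used the strand is not given in the sources used here. *Pcdhb14*, a clustered protocadherin, had at most 5.28 normalized counts in WT PCs against 15.3 to 29.5 in KO PCs.

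The VM class with lower expression held 28 genes (0.243%). Its size beside the 157 genes lower in PCs alone depended on the fit, with 79 in VMs against 86 in PCs by limma voom and 68 against 90 without WT PC 2. Its named members were *Ifitm3*, *Mmp2*, *Dpt*, *Rnase4*, *Pdgfrb*, *Adgre1*, *Loxl1*, *Notch4*, *Pkib* and *Fdx1*, and several of these are known from fibroblasts, pericytes, vessels or macrophages and not from cardiomyocytes. The genes were of low level, with a median mean of 13.6 normalized counts in WT VMs and 1.86 in KO VMs, and for 15 of the 28 all KO VM libraries were at the floor. In PCs the medians were 13.3 in WT and 15.5 in KO.

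*Ifitm3* (ENSMUSG00000025492, chromosome 7, 141009586 to 141010770), an interferon-induced membrane protein, had 24.8, 15.6 and 15.5 normalized counts in WT VMs and 0, 5.66 and 1.28 in KO VMs. WT PCs had 35.1, 51.6 and 35.7 and KO PCs 130, 47.3 and 30.9. The VM groups lay apart, by raw counts of 24, 15 and 19 against 0, 4 and 1. The log2 fold change was -2.92 in VMs (standard error 0.81) and 0.76 in PCs (standard error 0.58), and the interaction 3.68 (95% interval 1.56 to 5.80). *Mmp2*, a gelatinase of connective tissue, had 19.6, 9.34 and 8.97 normalized counts in WT VMs and was at the floor in every KO VM library, at least 2.98-fold lower, while the PC libraries held 16.8 to 29.2.

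*Dpt*, a matrix protein made by fibroblasts, had 20.7, 12.4 and 16.3 normalized counts in WT VMs and 1.56, 5.66 and 3.83 in KO VMs. *Rnase4*, a secreted ribonuclease, had 24.8, 22.8 and 19.6 in WT VMs and 3.12, 7.08 and 5.10 in KO VMs, with a log2 fold change of -2.10 (standard error 0.50). *Pdgfrb*, the receptor that marks pericytes, had 16.5, 12.4 and 20.4 in WT VMs and 0, 7.08 and 2.55 in KO VMs. For all 3 genes the VM groups lay apart and the PC groups overlapped, with 20.6 to 57.1 normalized counts for *Dpt*, 33.9 to 66.6 for *Rnase4* and 20.2 to 87.2 for *Pdgfrb* over the PC libraries. *Pkib*, an inhibitor of protein kinase A, had 8, 9 and 9 counts in WT VMs and 0 in each KO VM, at least 1.96-fold lower. In PCs it had 13.9, 25.8 and 33.8 normalized counts when WT and 1.94, 2.78 and 16.2 when KO, with overlap and without passing the threshold. *Adgre1*, the macrophage antigen F4/80, had 7, 5 and 1 counts in WT VMs and 0 in each KO VM, and *Loxl1*, a crosslinker of elastin, 4, 5 and 3 against 0. Those counts are too low for a fold.

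**Figure D4:**
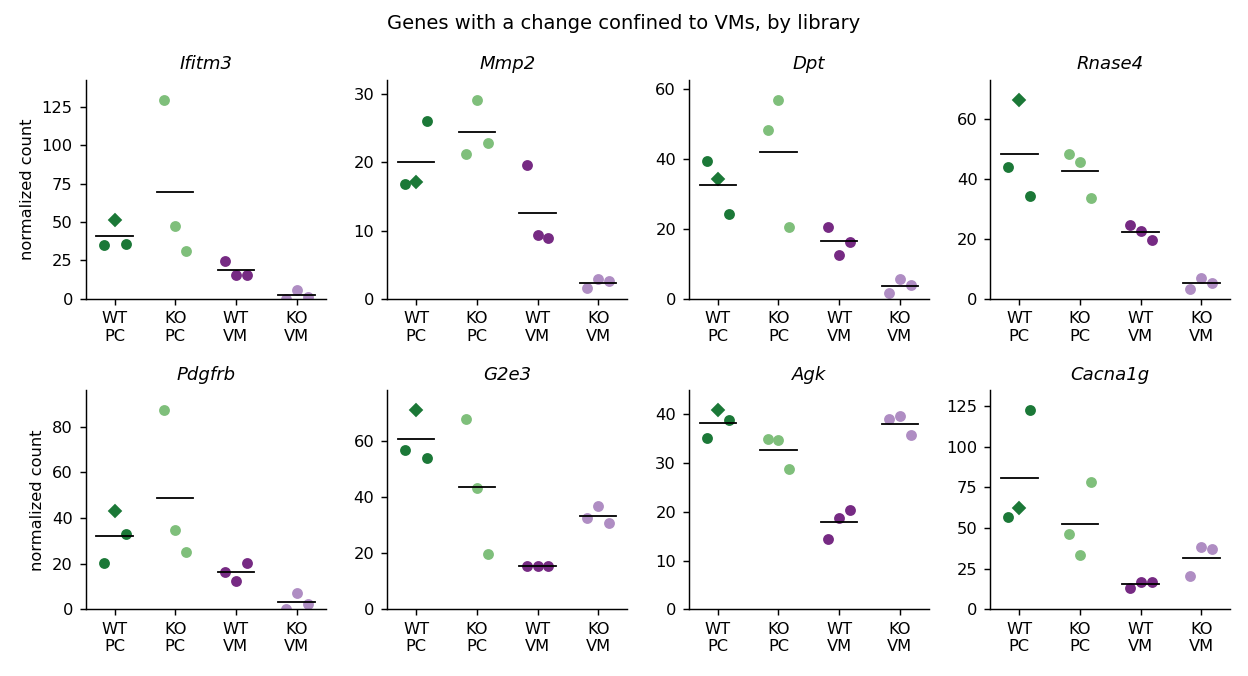
Normalized counts (vertical, linear from 0) of 8 genes of the VM classes in each library, by group, with a line at each group's mean and a diamond for WT PC 2. *Ifitm3*, *Mmp2*, *Dpt*, *Rnase4* and *Pdgfrb* are near 0 in KO VMs and overlap between the PC groups, and *G2e3*, *Agk* and *Cacna1g* are higher in KO VMs than in WT VMs. The panels were chosen after the values were seen.

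Values of markers of other cell types stand beside this class. Of 51 tested markers of endothelial cells, fibroblasts, smooth muscle and pericytes, and leukocytes, 42 had a negative estimate in VMs and 28 in PCs, where 6087 and 5799 of all 11533 genes did. In VMs 7 were lower by the unadjusted test, where 0.893% of all genes were, and in PCs 0. Without replicate 1 of KO VMs, 1 fibroblast, 1 smooth muscle or pericyte and 1 leukocyte marker were lower in VMs. The median VM change then went from -0.46 to 0.00 for fibroblast markers and from -0.84 to -0.39 for endothelial ones. For smooth muscle and pericyte markers it went from -0.62 to -0.43, and for leukocyte markers from -0.87 to -0.47. With all 12 libraries, the 15 tested endothelial markers all had a negative VM estimate and a positive interaction, 0 of these interactions at p under 0.05. Only *Dpt*, *Pdgfrb* and *Adgre1* of the 28 genes were on these lists. The 16 endothelial markers summed to 192 to 760 normalized counts in KO VMs and 645 to 1161 in WT VMs, against 1786 to 2277 in WT PCs and 1237 to 3954 in KO PCs. The 14 fibroblast markers summed to 106 to 524 in KO VMs and 378 to 656 in WT VMs, and the 18 leukocyte markers to 20.3 to 130 and 112 to 239. Replicate 1 of KO VMs was the lowest in these 3 sums, and 12 of the 18 leukocyte markers had no count in it. The sums of the 14 smooth muscle and pericyte markers did not follow this. They were 8031 to 9402 in KO VMs and 8181 to 8936 in WT VMs, with replicate 1 the highest of the KO VMs. Such a sum follows its most abundant members, and scarce ones such as *Pdgfrb*, at 12.4 to 20.4 in WT VMs, hardly enter it. Gene by gene, 3 of the 12 tested were lower in KO VMs and 0 higher, and their median VM change was -0.62. In replicate 1 of KO VMs, 5 of the 14 had no count. In bulk libraries fewer cells of a type and less RNA per cell cannot be told apart. The part of these markers in the result was not tested.

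Replicate 1 of KO VMs also decided much of the class. It was the lowest KO VM, alone or tied, for 22 of the 28 genes by normalized count, against 39.2% of all genes tested, and had no count for 13. Without it 11 of the 28 remained in the class and 14 kept an interaction at p under 0.05. All 28 kept the same sign, but they were chosen on libraries that the refit shares. Leaving out WT PC 2 instead kept 27 of the 28 in the class. Among the more abundant of the 28, and named here after its values were seen, was *P2ry1*, a purinergic receptor, with means of 264 normalized counts in WT VMs, 161 in KO VMs, 122 in WT PCs and 166 in KO PCs. *Fdx1*, a mitochondrial ferredoxin that lies within 10 Mb of *Ncam1*, was at the edge of the class, with an interaction of 0.70, just past the threshold, and of 0.57 without WT PC 2, where it no longer passed.

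The VM class with higher expression held 10 genes (0.0867%). *Agk*, an acylglycerol kinase of the mitochondrial inner membrane, had 14.5, 18.7 and 20.4 normalized counts in WT VMs and 39, 39.6 and 35.7 in KO VMs, 2.12-fold more. Its PC libraries held 28.7 to 40.8, all above the WT VMs. *G2e3*, a ubiquitin ligase, had 15.5, 15.6 and 15.5 in WT VMs and 32.7, 36.8 and 30.6 in KO VMs, with an interaction of -1.60 (standard error 0.61). *Cacna1g*, the T-type calcium channel CaV3.1 of pacemaking and conduction tissue, had 13.4, 16.6 and 17.1 in WT VMs and 20.3, 38.2 and 37 in KO VMs. In PCs *Cacna1g* had 56.7, 62.3 and 122 in WT and 46.5, 33.4 and 78.1 in KO, with overlap, and its interaction was -1.61 (standard error 0.62). *Fam20b* and *Rxra*, a xylose kinase of proteoglycan synthesis and a nuclear receptor, had interactions of -0.80 and -0.73. *Cdc14a*, a phosphatase, had an interaction of -2.44 that went to -0.98 and no longer passed without WT PC 2, which held 125 normalized counts against 16.3 and 20.4 in the other WT PCs.

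Opposite changes were found for 4 genes (0.0347%). *Enpep*, the aminopeptidase that cleaves angiotensin II, had the smallest p-value of all. It had 103, 161 and 60.5 normalized counts in WT PCs against 39, 58.4 and 37.6 in KO PCs, but 14.5, 12.4 and 26.1 in WT VMs and 29.6, 38.2 and 49.8 in KO VMs. Neither pair of groups overlapped. The log2 fold change was -1.25 in PCs (standard error 0.42) and 1.13 in VMs (standard error 0.45), and the interaction -2.38 (95% interval -3.69 to -1.08), or -2.0 without WT PC 2. *Itgb5*, an integrin subunit, was lower in KO PCs and higher in KO VMs (interaction -1.28). Without WT PC 2, the highest of the WT PCs at 262 normalized counts, its PC change went from -0.63 to -0.29 and no longer passed, while the interaction of -0.93 did. *Ndufaf1*, an assembly factor of respiratory complex I, was higher in KO PCs and lower in KO VMs, with normalized counts of 103, 90.3 and 103 in WT PCs, 139, 134 and 152 in KO PCs, 161, 200 and 165 in WT VMs and 112, 147 and 116 in KO VMs (interaction 1.0).

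Lack of overlap between groups was common. WT and KO libraries did not overlap for 9.43% of all genes tested in PCs and for 9.79% in VMs. Of the 157 genes of the PC-lower class 92 had PC groups that lay apart, of the 48 PC-higher genes 42, of the 28 VM-lower genes 25 and of the 10 VM-higher genes 8, but the classes were chosen on the same libraries.

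Among genes known for PC identity, more had a negative than a positive interaction. Of the 28 tested of 30 listed, 12 were lower and 1 higher in KO PCs, 1 was lower and 3 were higher in KO VMs, and 4 had a negative and 0 a positive interaction. The shares over all genes were 6.04% lower and 2.44% higher in PCs, 0.893% and 0.468% in VMs, and 1.87% negative and 1.08% positive interactions. Those 4 were *Hopx*, *Sema3a*, *Slit2* and *Cacna1g*, and 24 of the 28 had a negative estimate, where 5637 of all 11533 genes did. For the 26 without a group at 0 counts the median was -0.73 in PCs, 0.04 in VMs and -0.75 for the interaction, beside 0.02 for the interaction over all such genes. The list sums were 5305, 8225 and 8745 normalized counts in WT PCs against 3549, 3825 and 5779 in KO PCs, with replicate 3 of KO PCs the highest. VMs had 2673 to 2804 in WT and 3238 to 3799 in KO. Without WT PC 2 the number with a negative interaction was 5, and without replicate 3 of KO PCs it was 11. The list holds genes that the study named from these libraries, so its direction is not independent evidence.

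*Drd2*, *Etv1*, *Scn10a* and *Alcam* were lower in KO PCs by the unadjusted test, and for none of them was a difference from VMs detectable. *Drd2*, a dopamine receptor, had 110, 166 and 380 normalized counts in WT PCs against 5.81, 33.4 and 96.5 in KO PCs, but at most 3 counts in any VM library, so its interaction of -2.15 had a 95% interval from -6.04 to 1.73. *Pcp4*, a calmodulin-binding protein, had 0 counts in every VM library, and no interaction can be given. *Etv1*, a transcription factor of conduction cells, had an interaction of -0.97 (standard error 0.72), *Scn10a*, the sodium channel NaV1.8, of -2.03 (standard error 1.25), and *Alcam*, an adhesion molecule, of -0.98 (standard error 1.15). *Cntn2* had an interaction of -2.04 (standard error 1.45) and passed in neither cell type. *Nkx2-5* and *Gja5*, the gene of connexin 40, had interactions of 0.11 (standard error 0.56) and 0.19 (standard error 1.14), with directions that turned under some settings. *Gja5* overlaps *Gpr89* on the opposite strand. *Cdh6* had at most 27 counts in any PC library, at most 2 in any VM library, and was too scarce to be tested.

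*Scn4b* showed the opposite case, a change shared by both cell types. This sodium channel beta subunit had 115, 70.9 and 111 normalized counts in WT PCs against 23.2, 16.7 and 12.5 in KO PCs, and 190, 138 and 250 in WT VMs against 12.5, 26.9 and 33.2 in KO VMs. No library of either genotype reached the other in either cell type. The log2 fold change was -2.57 in PCs and -2.98 in VMs, with edgeR adjusted p-values (Benjamini-Hochberg) of 0.0390 and 0.0143, and the interaction of 0.40 had a 95% interval from -0.78 to 1.59. In that fit *Tmprss13* and *Plet1os* were the other genes to pass in PCs. All 3 lie within 10 Mb of *Ncam1*. Of 147 tested genes in that window, 15 were lower and 3 higher in KO PCs, 7 lower and 3 higher in KO VMs, where the shares over all genes were 6.04%, 2.44%, 0.893% and 0.468%. The window had 2 negative and 4 positive interactions, where 1.87% and 1.08% of all genes had one, and 0 and 5 without WT PC 2.

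Ribosomal and respiratory genes were called lower in KO PCs more often with WT PC 2 than without it. Of 79 tested cytosolic ribosomal proteins, 22 were lower in KO PCs, where 6.04% of all genes were, and 4 had a negative interaction, where 1.87% did. These were *Rpsa*, *Rpl6*, *Rpl36a* and *Rps21*, and the median interaction was -0.54. The list summed to 73122 normalized counts in WT PC 2 and to 26890 to 38676 in the other 11 libraries. Without that library 3 were lower in KO PCs, 1 had a negative and 1 a positive interaction, and the median was -0.11. Of 76 nuclear genes of the respiratory chain 12 were lower and 1 higher in KO PCs against those 6.04% and 2.44%, and 0 and 2 without WT PC 2, the negative and the positive interaction being *Ndufa2* and *Sdhd*. The sum was 305811 in WT PC 2 and 155989 to 198808 elsewhere. The median interaction of these genes was -0.42 with it and 0.04 without it, and the interaction of *Ndufa2* went from -1.55 to -0.20 and no longer passed.

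**Figure D5:**
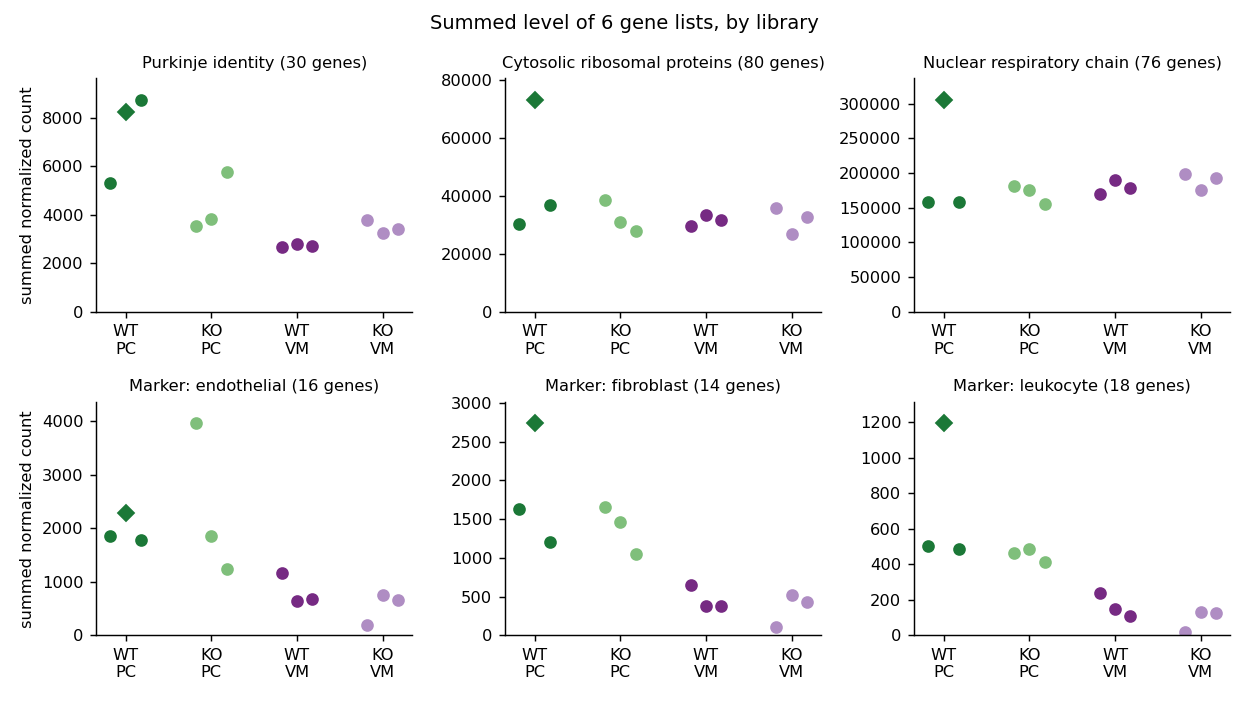
Summed normalized counts (vertical, linear from 0) of 6 gene lists in each library, by group, with a diamond for WT PC 2. The Purkinje identity list reaches 8225 and 8745 in WT PC replicates 2 and 3, with replicate 1 below the highest KO PC, the ribosomal and respiratory lists stand out in WT PC 2, at 73122 and 305811, and the endothelial, fibroblast and leukocyte marker lists are lowest in replicate 1 of KO VMs.

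Red blood cell genes were lower in KO in PCs and in part in VMs. *Hbb-bs*, an adult beta globin, had 516, 3167 and 0.637 normalized counts in WT PCs and at most 13.3 in any KO PC library, and 129, 64.3 and 3.26 in WT VMs against at most 1.56 in KO VMs. All 4 globins tested were lower in KO PCs and 2 in KO VMs, and none had an interaction at p under 0.05. Without WT PC 2, only 2 could be tested, and those 2 were lower in KO PCs and in KO VMs. By limma voom with quality weights 0 of the 4 were lower in either cell type. Replicate 3 of WT stood apart from the other WT libraries in both cell types, with 1 count of *Hbb-bs* in PCs and 4 in VMs. The gene was named after its values were seen.

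Several lists held no gene with an interaction. At a share of 2.95% over all genes, this is near what any 1 list of this size would hold. Over these lists together it is below that share, but they are grouped here because they held none. None of 18 sodium channel and transport genes, 22 potassium channel genes, 25 genes of connexins and the intercalated disc, 28 of NCAM and Ras-MAPK signalling, 19 axon guidance receptors, 21 other adhesion molecules, 24 circadian genes, 30 of glycolysis, 27 chaperones or 22 immediate early genes had an interaction at p under 0.05. Without replicate 3 of KO PCs, 2 axon guidance receptors and 1 gene each of the sodium channel, adhesion, NCAM and glycolysis lists had a negative one. The median interactions of these lists, over genes without a group at 0, lay between -0.16 and 0.26. Among 25 guidance ligands *Sema3a* and *Slit2* had a negative interaction and the median was positive, at 0.27. Of 18 calcium and pacemaker channel genes, *Cacna1g* was negative and *Trpc1* positive, and of 28 calcium handling genes *Orai1*, the pore of store-operated calcium entry, was negative at -2.24 (standard error 0.92). In 31 genes of fatty acid oxidation, *Etfa* and *Etfb*, the subunits of 1 electron transfer flavoprotein, had interactions of 0.55 and -1.47, and *Etfb* went to -0.35 without WT PC 2. *Gnai2*, an inhibitory G protein subunit on the receptor list, had -0.85 (standard error 0.37), and -0.66 without WT PC 2, where it no longer passed.

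In the matrix list, *Timp2*, an inhibitor of metalloproteinases, was lower in KO PCs (interaction -1.28, standard error 0.49), the reverse of *Mmp2*, which was lower in KO VMs. In the interferon list *Ifi35* had a negative interaction (-2.49) while *Ddx58*, the sensor RIG-I, and *Ifitm3* had positive ones. *Notch4*, an endothelial Notch receptor, had 6, 5 and 11 counts in WT VMs and 0, 0 and 2 in KO VMs. The 11 atrial markers had 1 negative interaction, *Stard10*, with 103, 245 and 178 normalized counts in WT PCs against 15.5, 40.4 and 86.2 in KO PCs, and their 10 members without a group at 0 had a median interaction of -1.05. Without WT PC 2 the interaction of *Stard10* was -1.33 and no longer passed, leaving 0 on the list. Over all 11 the median interaction was -1.34, and -1.16 without that library. Without replicate 3 of KO PCs, 4 of the 11 had a negative interaction. The 12 cardiomyocyte markers had none, and their sum ran from 531000 to 854949 normalized counts over the 12 libraries. Of the 4 tested neuronal and Schwann cell markers, 1 was lower in KO PCs while 0 had an interaction. In the mitochondrial genome, with 23 genes tested, 0 had an interaction and the median was -0.36, or 0.02 without WT PC 2.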

How the data were processed

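The authors deposited raw counts of read pairs per gene for each library, made with STAR and HTSeq on mm10 and not normalized. RNA had been amplified before sequencing, and molecular identifiers are not mentioned. Only genes were analysed here, after removal of the 5 summary classes, which held 40.0% to 73.6% of the read pairs. Symbols and positions came from the GENCODE annotation of GRCm38, which lacks 468 of 48526 identifiers.

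In R 4.3.3, edgeR 4.0.16 (TMM, glmQLFit, glmQLFTest) was fitted to 12 libraries in 4 groups over genes whose normalized counts averaged above 5, with Benjamini-Hochberg adjustment. The standard error is the log2 change divided by the square root of F. A class needed an unadjusted p-value under 0.05 for the interaction and in the named cell type, and 0.05 or more in the other, which does not show that the other was unchanged. P-values measure the spread between libraries, which may be technical. Depth outside the mitochondrial genome, 1532393 to 6761356 counts, limits what is seen for scarce genes.

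Named genes were protein-coding with a group mean of 20 or more, the 15 smallest p-values of each sign, the 6 largest changes of each class without overlap, genes with opposite changes, up to 6 members of each list by p-value (whatever their level) and 11 genes named by the study or known from conduction cells. Members and the 31 hand-written lists were chosen with earlier results of these data known. Alternatives were DESeq2 1.42.0, its size factors, filterByExpr, no filter, limma 3.58.1 voom with quality weights, a robust fit, thinned counts, no mitochondrial genes, 2 replicate blocks and each library left out. Steps were checked on simulated data.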

Additional observations from a re-analysis of the deposited data

Results flagged for a closer look

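Opposite changes were flagged in 4 genes. In each of them every KO library lay on one side of every WT library in PCs and on the other side in VMs. Lack of overlap by itself was found for 9.43% of all genes tested in PCs and 9.79% in VMs, and the 4 were chosen on the same libraries. The interactions were -2.38 for *Enpep*, -1.28 for *Itgb5*, 1.0 for *Ndufaf1* and 4.06 for *Colgalt2*, all past the threshold of 0.05 before adjustment and none after it. *Colgalt2*, a collagen galactosyltransferase named here after its values were seen, was scarce, with raw counts of 6, 0 and 6 in WT PCs, of 5, 12 and 11 in KO PCs, 9, 6 and 10 in WT VMs and 1, 2 and 1 in KO VMs. *Itgb5* had normalized counts of 125, 262 and 156 in WT PCs, of 110, 115 and 119 in KO PCs, 65.1, 74.7 and 72.5 in WT VMs and 148, 84.9 and 101 in KO VMs. Without replicate 2 of WT PCs the PC change of *Itgb5* went from -0.63 to -0.29 and no longer passed.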

How the results depend on the processing

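Without a filter on low counts the interaction gave 19 genes after adjustment and 1003 before it, 590 changed in PCs alone, 125 in VMs alone and 16 in opposite directions, and the knockout changed 1853 genes in PCs and 389 in VMs. By limma voom with quality weights 123 genes changed in VMs alone and 7 in opposite directions, with 522 changed in PCs (304 lower and 218 higher) and 651 in VMs. Thinned counts and the replicate block by number each left 1 gene with opposite changes, and the 6 libraries of a cell type fitted alone gave 394 genes in PCs and 554 in VMs. The cause of these differences was not tested. Leaving out each library gave 202 (without WT VM 2) to 857 interactions (without WT PC 3), 115 (WT VM 2) to 685 (WT PC 3) for PCs alone, 17 (KO VM 1) to 87 (WT PC 2) for VMs alone, 0 to 7 opposite changes, and 693 to 1776 (WT PC 1) knockout changes in PCs and 84 (KO VM 1) to 410 (WT PC 2) in VMs. All 65 named genes past the threshold kept their sign under every alternative in which they could be fitted. They had passed on the same libraries that these refits share, so the kept sign is not independent support. Of the 65, 48 passed without WT PC 2 and 31 passed with each of the 12 libraries left out. The interaction of *Nkx2-5* was -0.45 with thinned counts and -0.26 to 0.33 with a library left out. That of *Gja5* was -1.29 by voom, -0.42 thinned, -0.16 with the replicate block within genotype, -0.36 with the block by number and -1.45 to 0.71 with a library left out, and that of *Scn10a* -3.01 to 0.019. Same-numbered PC and VM libraries had correlated deviations of 0.204, 0.0813 and 0.142 for WT libraries, and of -0.0165, 0.121 and 0.0167 for KO libraries, over 8332 genes. Differently numbered WT libraries had -0.166 to 0.0203, below every same-numbered WT value. Deviations were taken from each group's mean, so higher same-numbered values force the others down. Libraries of different genotype, which cannot share a heart, reached 0.112 (WT VM 2 with KO VM 1). For KO they had -0.129 to 0.0914, which overlaps the same-numbered values. The main fit did not take the numbers as pairs, and whether same-numbered libraries share a heart was not tested. The replicate block gave 305 interactions within genotype, where the classes could not be fitted, and 286 by number.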
